A study of Mus musculus with 16 samples.

Results

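The miR-378 arms are the 2 mature miRNAs cut from the miR-378 hairpin, miR-378-3p and miR-378-5p, which newer annotations call miR-378a-3p and miR-378a-5p and which older ones call miR-378 and miR-378*. They were taken by name from the mouse miRNAs on the array and are 2 of 611. Whole-lung total RNA of adult BALB/c mice had been hybridised to Agilent 1-colour miRNA arrays, in which PBS/PBS had 2 arrays, OVA/OVA 6, and PBS/OVA and OVA/OVA DEX 4 each. OVA/OVA mice were sensitised by an intraperitoneal injection of 50 μg ovalbumin (OVA, an egg white protein used as allergen) with 1 mg of the adjuvant Alhydrogel on day 0, and received 10 μg OVA into the nose on days 12, 13, 14 and 15. PBS/OVA mice received the adjuvant without OVA on day 0 and the same OVA challenges, and PBS/PBS mice received the adjuvant without OVA and were challenged with PBS. All groups thus carried the adjuvant. OVA/OVA DEX mice were treated as OVA/OVA mice and also received dexamethasone (DEX, a synthetic glucocorticoid) at 3 mg/kg into the peritoneum from day 11 on alternate days, given 1 hour ahead of a challenge. Lungs were taken 24 hours after the last challenge. The labels name the arrays of a group as replicates and do not say that each came from a separate animal, so p-values measure the spread between these arrays.

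The hairpin lies in an intron of Ppargc1b, which encodes PGC-1β, a coactivator of genes for mitochondria and fat oxidation, and in the RefSeq gene table (GRCm38.p6) the hairpin gene Mir378a falls inside the span of Ppargc1b. A miRNA arm loaded into an Argonaute protein represses mRNAs that pair with its seed, so the arms of a hairpin act on different targets. MiR-378-3p is known to repress Crat, a carnitine acetyltransferase, and miR-378-5p to repress Med13, a subunit of the Mediator complex, and both are best known from fat, muscle and liver. In the immune system, miR-378-3p is known as a miRNA of macrophages stimulated with interleukin-4, a cytokine of allergic responses. Both arms are in the list of altered miRNAs that the study drew from these arrays, so the tests on them are not independent evidence of a change. In bulk lung RNA, more cells that carry a miRNA and more of it per cell cannot be told apart.

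Among all 266 miRNAs tested, the signals of miR-7a-5p, miR-362-5p, miR-18a-5p and miR-532-5p followed those of both arms most closely, after the arms themselves, over the 16 arrays, with values given further on. The mature sequences of those in the RefSeq miRNA table (GRCm38.p6) are shown to set their seeds, bases 2 to 8 in capitals, side by side.
miR-7a-5p: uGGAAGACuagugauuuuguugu
miR-362-5p: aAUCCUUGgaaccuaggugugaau
miR-18a-5p: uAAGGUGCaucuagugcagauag
MiR-7a-5p, a miRNA of neurons and hormone-secreting cells, is encoded on the minus strand at chr13:58392841-58392863 and on the plus strand at chr7:78888295-78888317. MiR-362-5p comes from a miRNA cluster on the X chromosome, on the minus strand at chrX:7242019-7242042. MiR-18a-5p, a member of the miR-17 to miR-92a cluster known for its part in cell proliferation, is encoded on the plus strand at chr14:115043867-115043889. No 2 of these seeds are the same.

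Signals were summed over the probes of a miRNA, divided by a value for each array so that arrays of different brightness could be compared, and given as log2 (scaled signal, log2). Over the whole array, between 224 and 301 of the 611 miRNAs were detected and 0 spots were saturated. The summed signal before scaling of OVA/OVA lay between 253333 and 734606 and that of PBS/PBS between 795089 and 942144, and the dimmest array of the series was an OVA/OVA array. The arrays lay on 2 slides, with both PBS/PBS arrays on slide 1. All 5 epithelial miRNAs and both endothelial miRNAs checked were detected in every group. Of the striated muscle miRNAs, miR-1a-3p, miR-133a-3p, miR-133b-3p and miR-208b-3p were detected on all 16 arrays and miR-208a-3p on 2. MiR-206-3p and miR-499-5p were detected on 0 arrays.

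MiR-378-3p was highest in OVA/OVA. The 2 PBS/PBS arrays gave a scaled signal of 7.45 and 7.60 (log2). The PBS/OVA arrays gave 7.28, 7.55, 7.37 and 7.50, and the OVA/OVA DEX arrays gave 7.58, 7.19, 7.74 and 7.63. The OVA/OVA arrays ranged from 8.19 over a median of 8.78 to 8.99. Each OVA/OVA array therefore lay above each array of the other groups, and the other 3 groups overlapped. The mean of OVA/OVA was 8.64 ± 0.331 (SD, n = 6). The means of the other groups were 7.54 ± 0.239 for OVA/OVA DEX (SD, n = 4), 7.52 ± 0.102 for PBS/PBS (SD, n = 2) and 7.43 ± 0.122 for PBS/OVA (SD, n = 4). Before scaling, the signal was 200.9 to 593.5 for OVA/OVA, 268 and 360 for PBS/PBS, 181.6 to 218.7 for PBS/OVA and 164.3 to 191.3 for OVA/OVA DEX, so that the unscaled signals of OVA/OVA overlapped with those of PBS/PBS and PBS/OVA.

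MiR-378-5p had the same group on top with smaller differences. The PBS/PBS arrays gave a scaled signal of 4.81 and 4.94 (log2). The PBS/OVA arrays gave 4.62, 4.81, 4.72 and 4.76, and the OVA/OVA DEX arrays gave 4.90, 4.68, 4.92 and 4.71. In OVA/OVA the lowest array was at 5.15, the median at 5.52 and the highest array at 5.82. Again no OVA/OVA array overlapped with an array of another group. The mean of OVA/OVA was 5.45 ± 0.255 (SD, n = 6). The means of the other groups were 4.88 ± 0.0947 for PBS/PBS (SD, n = 2), 4.80 ± 0.126 for OVA/OVA DEX (SD, n = 4) and 4.73 ± 0.0819 for PBS/OVA (SD, n = 4). Of the 266 miRNAs tested, 20 or 7.52% had all 6 OVA/OVA arrays above all 10 other arrays, and both arms were among them.

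**Figure D1:**
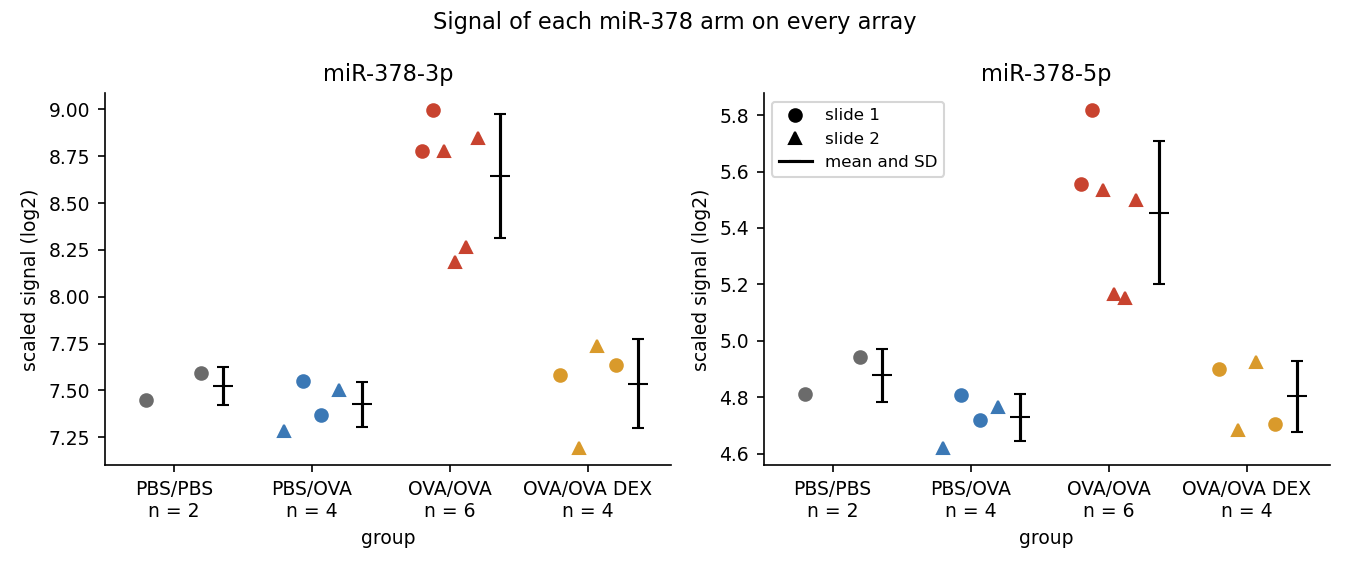
Scaled signal (log2) of miR-378-3p (left) and miR-378-5p (right) on each of the 16 arrays by group. Circles are slide 1 and triangles slide 2, and the bar beside each group is its mean and SD. In both panels the 6 OVA/OVA arrays lie above the 10 other arrays.

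MiR-378-3p rose in OVA/OVA compared to each of the other groups, in 3 comparisons that share the OVA/OVA arrays. Against PBS/PBS the log2 difference was 1.12 (SE 0.202, limma adjusted p = 0.00221), a 2.17-fold rise with a 95% confidence interval of 1.61 to 2.93. Against PBS/OVA, which isolates sensitisation among OVA-challenged mice, it was 1.22 (SE 0.159, adjusted p = 0.00026) or 2.32-fold. This was the 9th highest of the 266 differences in that comparison. The comparison with OVA/OVA DEX, which asks for the effect of the steroid in allergic mice, gave 1.11 (SE 0.159, adjusted p = 0.000144) or 2.15-fold, with 25 miRNAs ranked above it. MiR-378-3p was called, by an adjusted p under 0.05 and at least a 2-fold change, in all 3 comparisons, and the share of miRNAs called higher was 6.02% for the PBS/PBS comparison, 3.38% for PBS/OVA and 9.4% for OVA/OVA DEX. Without OVA/OVA DEX replicate 2, the array with the lowest signal, the last difference was 0.99 and so below 2-fold. Other scalings also took miR-378-3p below 2-fold, with 0.58, 0.98 and 0.89 in these comparisons for the percentile over all miRNAs and 0.38, 0.56 and 0.40 for control spots. Quantile normalization gave 0.90 over PBS/PBS, and normexp background correction gave 0.95 over PBS/OVA and 0.82 over OVA/OVA DEX.

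MiR-378-5p rose as well, by less than 2-fold. OVA/OVA exceeded PBS/PBS by 0.58 (SE 0.149, limma adjusted p = 0.0141), or 1.49-fold. The difference was 0.73 (SE 0.117, adjusted p = 0.00057) or 1.66-fold against PBS/OVA. Over OVA/OVA DEX the rise was 0.65 (SE 0.117, adjusted p = 0.000713) or 1.57-fold. All 3 passed the test on the adjusted p and none the 2-fold requirement. The share of miRNAs that passed the adjusted p and were higher was 13.2% for the PBS/PBS comparison, 14.7% for PBS/OVA and 21.1% for OVA/OVA DEX. The share with arrays that did not overlap and were higher was 25.9%, 10.9% and 14.7% in the same order. Both arms together are thus 2 among many miRNAs with this direction. Without PBS/PBS replicate 1 the first difference was 0.51 (adjusted p = 0.166) and without PBS/PBS replicate 2 it was 0.64 (adjusted p = 0.0861), so this call needed both PBS/PBS arrays.

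Among the other 3 groups no difference of either arm passed the test. For miR-378-3p, OVA/OVA DEX minus PBS/PBS was 0.01 with a 95% confidence interval of -0.45 to 0.47, and for miR-378-5p it was -0.07 (-0.41 to 0.27). PBS/OVA differed from PBS/PBS by -0.10 (-0.56 to 0.36) for miR-378-3p and by -0.15 (-0.49 to 0.19) for miR-378-5p. For miR-378-5p the highest PBS/OVA array and the lower PBS/PBS array were nearly equal, at scaled signals before log2 of 28.04 and 28.05. In an exact two-sided permutation test of these 2 groups p was 0.133, the smallest possible with 4 arrays and 2. Between OVA/OVA DEX and PBS/OVA the differences were 0.11 (-0.26 to 0.49) and 0.08 (-0.20 to 0.35). As folds, the intervals of miR-378-3p ran from 0.679 to 1.29, 0.734 to 1.39 and 0.832 to 1.40 for PBS/OVA over PBS/PBS and for OVA/OVA DEX over PBS/PBS and over PBS/OVA, so they do not show that the groups were alike. In these comparisons the share of miRNAs that passed the adjusted p was 0.0% for OVA/OVA DEX against PBS/PBS, 0.376% for PBS/OVA against PBS/PBS and 2.26% for OVA/OVA DEX against PBS/OVA. The 0 of 266 by limma for OVA/OVA DEX and PBS/PBS stood beside 19 whose p before adjustment was under 0.05. The exact Mann-Whitney test also called 0, but its smallest p with 4 arrays and 2 is 0.133, so it could call none.

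With the processing used here, the arms did not change by the same amount, which did not hold under all settings, as given further on. The arms also differ in brightness, and the part of this in the unequal change was not tested. Within an array, the log2 signal of miR-378-3p minus that of miR-378-5p does not depend on how arrays are scaled to each other, as long as a whole array is multiplied by 1 number. This difference was 2.64 and 2.65 in the 2 PBS/PBS arrays, and 2.66, 2.74, 2.65 and 2.74 in PBS/OVA. It was 2.68, 2.51, 2.82 and 2.93 in OVA/OVA DEX. In OVA/OVA it ranged from 3.02 over a median of 3.20 to 3.35. Every OVA/OVA array lay above every other array, and the OVA/OVA DEX arrays were the most spread. How many other hairpins separate the groups in this way was not counted. The absolute size of the difference compares different probes and carries no level. Its change was tested among the 46 hairpins with both arms tested. OVA/OVA exceeded PBS/PBS by 0.54 (SE 0.118, limma adjusted p = 0.0127), PBS/OVA by 0.49 (SE 0.0935, adjusted p = 0.00211) and OVA/OVA DEX by 0.45 (SE 0.0935, adjusted p = 0.00417). The share of hairpins with such a change in either direction was 6.52%, 8.7% and 39.1%, so the last comparison is not particular to miR-378. In the exact two-sided permutation test on miR-378 alone, p was 0.0714 for OVA/OVA over PBS/PBS and 0.00952 for each of the other 2 comparisons, the smallest that these numbers of arrays allow. Adjusted over 6 comparisons, these values were 0.143 and 0.0286. Each arm by itself gave the same exact p-values.

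**Figure D2:**
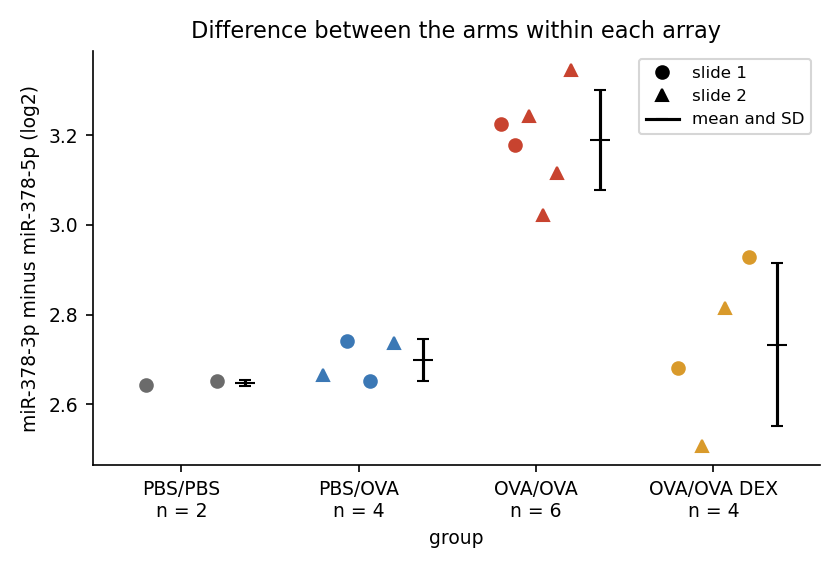
Log2 signal of miR-378-3p minus that of miR-378-5p within each of the 16 arrays by group. Circles are slide 1 and triangles slide 2, and the bar is the mean and SD. The 6 OVA/OVA arrays lie between 3.02 and 3.35 and the other arrays between 2.51 and 2.93.

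Between the other groups the difference between the arms changed by 0.05 (PBS/OVA minus PBS/PBS), 0.09 (OVA/OVA DEX minus PBS/PBS) and 0.04 (OVA/OVA DEX minus PBS/OVA), and none of these passed the test. The unequal change of the arms was not past the threshold under all settings. With the replicate number as a block it was 0.49 over PBS/PBS (adjusted p = 0.117), 0.47 over PBS/OVA (adjusted p = 0.0554) and 0.43 over OVA/OVA DEX (adjusted p = 0.0285). With normexp background correction the change was 0.15 against PBS/PBS (adjusted p = 0.432). Without PBS/PBS replicate 1 its adjusted p was 0.183 and without PBS/PBS replicate 2 it was 0.113.

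The 2 arms were measured at very different brightness. Each arm has 2 probes with 10 spots per probe on each array. Spot means of miR-378-3p ranged from 49.4 to 421 in background-subtracted intensity and all of its spots were well above background on all 16 arrays. Those of miR-378-5p ranged from 8.55 to 37.8, over a local background of 23.4 to 27.8. The median coefficient of variation between spots of a probe was 7.71% for miR-378-3p and 16.7% for miR-378-5p. Both arms were detected on all 16 arrays by the scanner software.

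The probes of an arm moved alike. In OVA/OVA minus PBS/PBS, the log2 differences of the 2 probes were 1.12 and 1.12 for miR-378-3p and 0.59 and 0.57 for miR-378-5p. In OVA/OVA minus PBS/OVA they were 1.27 and 1.19, and 0.80 and 0.68. For both probes of both arms the OVA/OVA arrays did not overlap with the arrays of any other group. Of the miRNAs tested, 7.52% had all OVA/OVA arrays above all other arrays, and the share over all probes was not counted. The second probe of miR-378-5p had 20 of 20 spots well above background in PBS/PBS, 35 of 40 in PBS/OVA, 52 of 60 in OVA/OVA and 15 of 40 in OVA/OVA DEX. The first probe had 17 of 20, 7 of 40, 28 of 60 and 0 of 40, so in OVA/OVA DEX it was not well above background on any array. These shares move with the groups and with the brightness of the arrays, and their part in the differences of miR-378-5p was not tested.

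**Figure D3:**
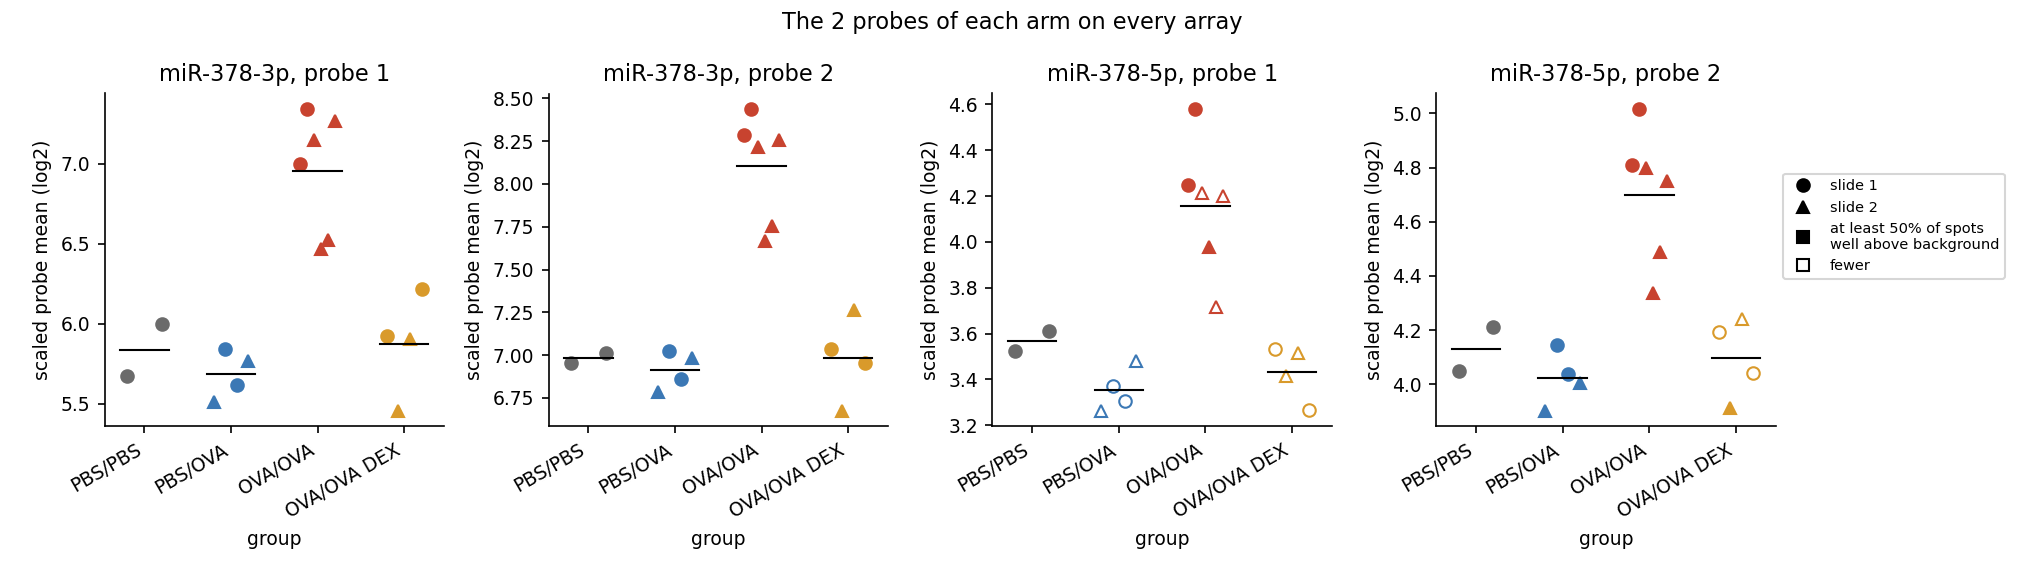
Scaled probe mean (log2) of each of the 2 probes of miR-378-3p and miR-378-5p on the 16 arrays by group, with the group mean as a line. Filled symbols have at least 50% of the 10 spots well above background, open symbols fewer. The OVA/OVA arrays are highest for all probes, and open symbols occur only for miR-378-5p.

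Within each slide the differences kept their direction. On slide 1, with 2 arrays per group, miR-378-3p was higher in OVA/OVA by 1.36 than in PBS/PBS, by 1.43 than in PBS/OVA and by 1.28 than in OVA/OVA DEX. On slide 2, with 4 OVA/OVA arrays and 2 of each other group present, it was higher by 1.13 than in PBS/OVA and by 1.06 than in OVA/OVA DEX. For miR-378-5p the values were 0.81, 0.92 and 0.88 on slide 1 and 0.65 and 0.54 on slide 2. The OVA/OVA arrays did not overlap with the other groups within either slide for either arm. How many of all miRNAs separate in this way within a slide was not counted. On slide 1 some small differences between other groups also had no overlap. They were OVA/OVA DEX minus PBS/OVA for miR-378-3p (0.15) and PBS/OVA minus PBS/PBS for miR-378-5p (-0.11), whereas the remaining comparisons of these groups overlapped for each arm. Slide 2 held no PBS/PBS array.

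The size of the differences depended on how arrays were scaled to each other. The median difference of all miRNAs tested was -0.02, -0.04 and -0.09 for OVA/OVA minus PBS/PBS, minus PBS/OVA and minus OVA/OVA DEX with the scaling used here. Without any scaling these medians were -1.11, -0.56 and -0.38, and with scaling by control spots -0.76, -0.69 and -0.80. MiR-378-3p stood above the median by 1.09 to 1.14 in OVA/OVA minus PBS/PBS, by 1.23 to 1.26 in OVA/OVA minus PBS/OVA and by 1.19 to 1.22 in OVA/OVA minus OVA/OVA DEX over 6 scalings. Scalings that multiply a whole array by 1 number shift all miRNAs together, so this constancy follows from their construction, and quantile normalization alone can move it. MiR-378-5p stood above the median by 0.07, 0.51 and 0.49 with quantile normalization and by 0.60, 0.77 and 0.74 with the scaling used here. Its own difference turned to -0.12 against PBS/PBS with quantile normalization, and to -0.17 against PBS/PBS and -0.057 against OVA/OVA DEX with control spots. Unscaled, miR-378-3p differed from PBS/PBS by 0.022 (adjusted p = 0.963) and miR-378-5p by -0.52 (adjusted p = 0.278). A rise against PBS/PBS was therefore measured only relative to the other miRNAs on the array. With array brightness as a covariate, miR-378-3p differed from PBS/PBS by 0.86 (adjusted p = 0.064).

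**Figure D4:**
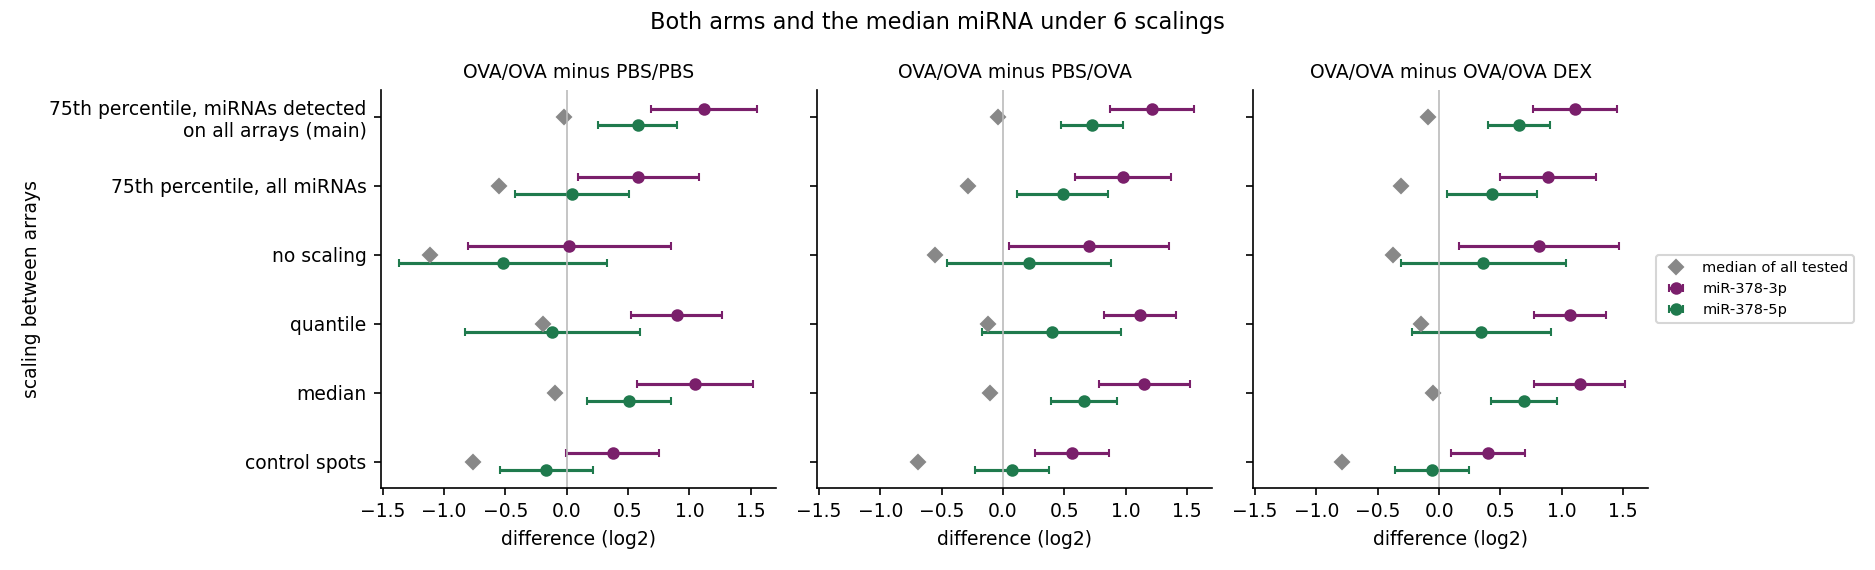
Log2 difference of miR-378-3p, miR-378-5p (points with 95% confidence intervals of the limma fit) and the median of all miRNAs tested (diamonds) for OVA/OVA minus each other group under 6 ways of scaling the arrays. The diamonds shift left without scaling and with control spots, and miR-378-3p keeps a similar distance from them.

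The value of miR-378-5p also depended on how probes were summarised. The scanner software gives a total gene signal, a sum over the probes it accepts. For miR-378-3p this equalled the sum of both probes on all 16 arrays. For miR-378-5p it held 61.3%, 62.3% and 63.1% of the sum on OVA/OVA DEX replicates 1, 3 and 4 and 63.1% on OVA/OVA replicate 5, and all of it on the other 12 arrays. On these 4 arrays the total was the larger probe alone, and none of the spots of the other probe was well above background. The same probe also had no such spot on PBS/OVA replicate 1 and OVA/OVA DEX replicate 2, yet their totals held both probes. With the total gene signal, miR-378-5p differed between OVA/OVA and OVA/OVA DEX by 1.05 (adjusted p = 0.00121) and so passed 2-fold, and between OVA/OVA and PBS/PBS by 0.47 (adjusted p = 0.198). The difference between the arms then changed by 0.052 between OVA/OVA and OVA/OVA DEX (adjusted p = 0.846). Among arrays with both probes counted, 5 of OVA/OVA and 1 of OVA/OVA DEX, the difference was 0.83. Over all detected miRNAs and arrays, 583 of 4162 totals, or 14.0%, were under 90% of the sum of their probes.

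**Figure D5:**
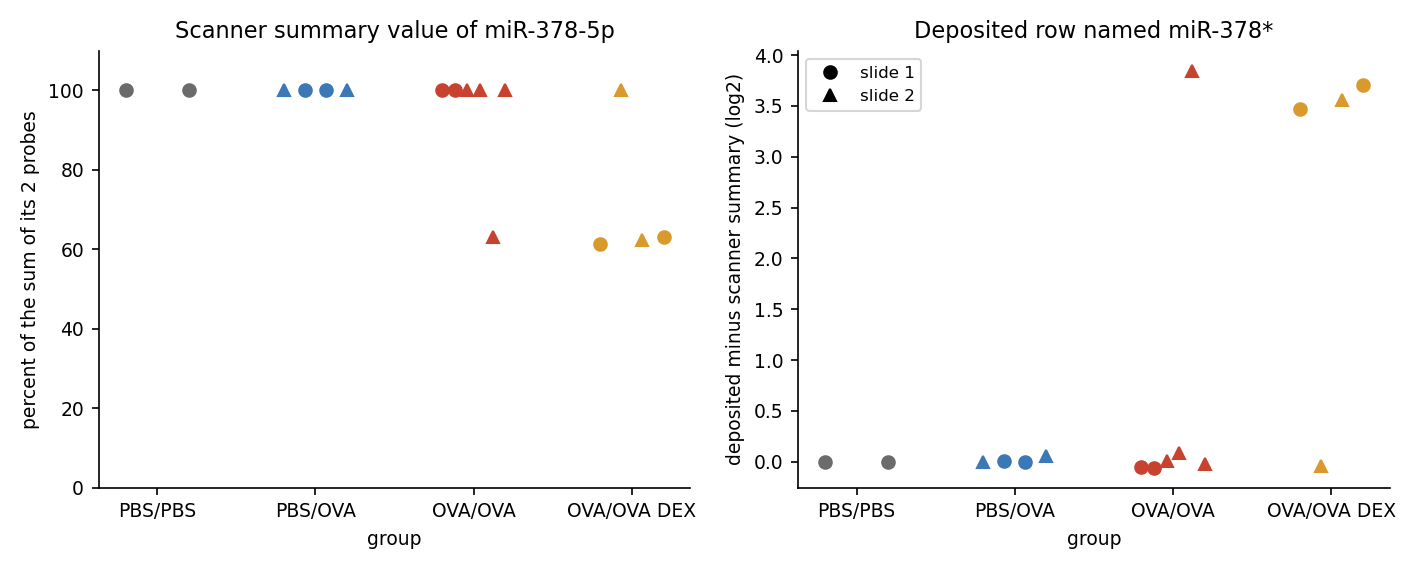
Left, the scanner's total gene signal of miR-378-5p as a percentage of the sum of its 2 probes on each array. Right, the deposited processed log2 value of the row named miR-378* minus the log2 total gene signal of miR-378-5p, shifted to the scale of that array. The same 4 arrays stand apart in both panels, 3 of them OVA/OVA DEX arrays and 1 an OVA/OVA array.

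The arms followed each other from array to array. Over the 6 OVA/OVA arrays, Pearson's r between them was 0.961 (exact permutation p = 0.0153, adjusted 0.0306) and Spearman's rho was 0.771 (exact permutation p = 0.103, adjusted 0.103). Without OVA/OVA replicates 4 and 5, the arrays farthest from the median of miR-378-5p and the lowest for both arms, r was 0.894 over 4 arrays. Over all 16 arrays, deviations from the group means had r = 0.904. Both arms share the array, its scaling and its RNA, so this is a description. By r over 16 arrays, the other arm was the closest of 265 miRNAs to miR-378-3p (r = 0.979) and to miR-378-5p. By deviations from the group means it ranked 1 for miR-378-3p but 3 for miR-378-5p, after miR-18a-5p and miR-532-5p.

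By r over the 16 arrays, the miRNAs next in likeness were the same for both arms. With miR-378-3p over the 16 arrays, r was 0.966 for miR-7a-5p, 0.966 for miR-362-5p, 0.959 for miR-18a-5p and 0.946 for miR-532-5p. With miR-378-5p it was 0.967 for miR-18a-5p, 0.965 for miR-532-5p, 0.961 for miR-362-5p and 0.950 for miR-7a-5p. Such values include the step between the groups, and the median over all miRNAs was -0.25 for miR-378-3p and -0.20 for miR-378-5p. Of 265 miRNAs, 16 had an r above 0.9 with miR-378-3p and 14 with miR-378-5p, the other arm included. For deviations from the group means, r with miR-378-5p was 0.923 for miR-18a-5p and 0.907 for miR-532-5p, and r with miR-378-3p was 0.795 and 0.724 for the same pair. MiR-362-5p and miR-7a-5p had 0.90 and 0.84 with miR-378-5p, and 0.78 and 0.81 with miR-378-3p. By this measure miR-155-5p ranked 2 for miR-378-3p (r = 0.865), above all of them, so the likeness was not the same for both arms. MiR-362-5p rose in OVA/OVA against PBS/PBS by 1.58 (limma adjusted p = 0.000455), miR-18a-5p by 1.19 (adjusted p = 0.00221), miR-7a-5p by 1.11 (adjusted p = 0.000455) and miR-532-5p by 1.00 (adjusted p = 0.00387).

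Other miRNAs known from metabolism were lower or did not pass the test, with 1 exception against OVA/OVA DEX. Of 25 on the array, which include miR-33 of cholesterol export, miR-103 and miR-107 of insulin sensitivity and miR-193b and miR-365 of brown fat, 20 were tested. In OVA/OVA minus PBS/PBS, 0 passed the test as higher and 6 as lower, with a median of -0.31 beside -0.02 over all miRNAs, of which 12.4% passed as lower. In OVA/OVA minus PBS/OVA the numbers were 0 higher and 8 lower (median -0.23 beside -0.04, and 16.9% of all miRNAs lower). In OVA/OVA minus OVA/OVA DEX they were 1 higher and 11 lower (median -0.29 beside -0.09, and 32.3% of all miRNAs lower). The only members called were miR-133a-3p and miR-133b-3p, miRNAs of muscle that restrain brown fat fate, which were lower in OVA/OVA than in PBS/PBS by log2 differences of -1.13 (limma adjusted p = 0.0226) and -1.11 (adjusted p = 0.0328). Of all 266 miRNAs tested, 10 were called lower in that comparison. MiR-455-5p, known from brown fat, had the next largest difference, -0.86 (adjusted p = 0.17), and was detected on 5 of 16 arrays. The one that passed as higher, against OVA/OVA DEX, was miR-34a-5p, a target of p53, at 0.39 (adjusted p = 0.0157).

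Lists of miRNAs of other cell types were counted in the same way, against the same shares of all miRNAs, which were 13.2%, 14.7% and 21.1% as higher and 12.4%, 16.9% and 32.3% as lower for PBS/PBS, for PBS/OVA and for OVA/OVA DEX. Of 5 haematopoietic miRNAs, all tested, 3 were higher in OVA/OVA in the PBS/PBS comparison, 5 in the PBS/OVA comparison and 4 in the OVA/OVA DEX comparison, with medians of 0.47, 0.66 and 0.57. MiR-150-5p (0.30, adjusted p = 0.367) and miR-142-5p (0.47, adjusted p = 0.0968) did not pass against PBS/PBS, nor did miR-150-5p against OVA/OVA DEX (0.44, adjusted p = 0.0768), and whether the list moved with the arms was not tested. Their summed scaled signal ranged from 32910 to 48380 in OVA/OVA and from 16290 to 27190 over the arrays of the other groups, and all 5 were detected in each group. Most of this sum is miR-142-3p, with a mean of 14.98 (log2) in OVA/OVA beside 12.63 for the next brightest, miR-223-3p. Of 7 miRNAs of striated muscle, a tissue in which miR-378 is abundant, 4 were tested, with 2 lower against PBS/PBS and 3 lower against each of PBS/OVA and OVA/OVA DEX. The lists overlap, since 5 of these 7, among them 3 of the 4 tested, are also in the metabolic list, and the 2 that were lower against PBS/PBS are the miR-133a-3p and miR-133b-3p given above. The sum of the muscle list ranged from 663 to 2206 in OVA/OVA and from 1763 to 2949 over the other arrays. Of 2 red cell miRNAs counted, miR-451 and miR-144-3p, both were lower than in OVA/OVA DEX and neither passed the test against the other groups. Their sum was 37070 to 70600 for OVA/OVA, 100300 to 136400 for OVA/OVA DEX and 47970 to 87450 for PBS/PBS and PBS/OVA together. MiR-486-5p, a red cell miRNA that the study lists as altered, was not counted here. The sum of the 5 epithelial miRNAs ranged from 9108 to 9767 in OVA/OVA and from 8563 to 10440 elsewhere, with 1 of them higher in each comparison and 1 lower than in OVA/OVA DEX. For the endothelial pair, with a sum of 30630 to 40950 in OVA/OVA and 38260 to 48570 elsewhere, 0 passed the test against PBS/PBS, whereas 2 were lower in each of the other comparisons. Ciliated cell miRNAs, 3 in number, had 2 lower against PBS/PBS, 0 against PBS/OVA, and 1 higher and 2 lower against OVA/OVA DEX, with sums of 3941 to 5333 in OVA/OVA and 3559 to 4732 elsewhere. The 2 smooth muscle miRNAs, of which miR-143-3p is also in the metabolic list, passed the test only against OVA/OVA DEX, both lower, with sums of 2300 to 2809 in OVA/OVA and 2478 to 3616 elsewhere. The part of these cell types in the differences of the miR-378 arms was not tested.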

How the data were processed

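Whole-lung miRNA was measured on 16 Agilent arrays (Mouse miRNA Release 12.0). The authors deposited Feature Extraction 10.7.3.1 output, which gives each spot's intensity after subtraction of its local background, not normalized between arrays. The authors also deposited processed log2 values, each shifted by a constant per array, whose 75th percentile is near 0 and whose other processing is not given in the sources used here. The row for miR-378 matched miR-378-3p within 0.15 on 16 of 16 arrays and served as an alternative.

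Here, control and outlier spots were left out, spots averaged per probe and probes summed per miRNA. Arrays were divided by their 75th percentile, taken over 206 miRNAs detected on every array, floored at 1.71 and log2-transformed. One limma 3.58.1 fit (R 4.3.3) over 4 groups tested the 266 miRNAs detected on all arrays of a group, with Benjamini-Hochberg adjustment. A call needed adjusted p under 0.05 and at least 2-fold. The fit across all miRNAs was tested on simulated data. Exact tests and summaries used Python 3.11.15, scipy 1.17.1, numpy 2.4.6, pandas 2.3.3 and matplotlib 3.10.9. The two-sided exact p doubles the smaller tail. The arms and all miRNA lists were chosen with earlier results of these data known. The miRNAs named are both arms, the 5 closest to each by Pearson's r, and the metabolic miRNAs called or with the 3 largest differences to PBS/PBS. MiR-155-5p is also named, for its rank by deviations from the group means. Alternatives covered scaling, background (normexp on median spot signals), probe summary, detection filter, floor, blocks, variance model, test and leaving out each array. The number of arrays limits the precision. The methods' text describes OVA challenge of all mice, whereas the labels give PBS challenge for PBS/PBS, which was used. Sequences and coordinates of the miR-378 hairpin are not reported here.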

Additional observations from a re-analysis of the deposited data

Results flagged for a closer look

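The deposited processed table has a row named mmu-miR-378*, the older name of miR-378-5p, which no comparison used. On 12 of 16 arrays its value matched the total gene signal of miR-378-5p within 0.15 on the log2 scale. On OVA/OVA replicate 5 and OVA/OVA DEX replicates 1, 3 and 4 it lay 3.47 to 3.85 above that signal, and within 0.06 of the log2 summed signal of both arms. It also lay within 0.15 of the total gene signal of miR-378-3p alone on these arrays, 0.062 to 0.12 above it. The deposited values of the row were 0.2 to 1.0 on these arrays, whereas both PBS/PBS arrays had -2.5 in it. The 4 arrays are those on which Feature Extraction left 1 of the 2 probes of miR-378-5p out of its total. The row ranged from -2.6 to 0.4 in OVA/OVA DEX and from -2.2 to 1.0 in OVA/OVA. How the row was made was not tested.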

How the results depend on the processing

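The 3 differences of miR-378-3p between OVA/OVA and the other groups kept their direction under all alternatives run. They missed the adjusted p without scaling, at 0.022, 0.70 and 0.82 for OVA/OVA minus PBS/PBS, minus PBS/OVA and minus OVA/OVA DEX, and for the first also with control spot scaling (0.38), the brightness covariate (0.86) and the exact Mann-Whitney test, the test of the methods, whose smallest p for 2 arrays against 6 without ties is 0.0714 (difference 1.12, adjusted p = 0.138). Leaving out each array in turn gave 1.05 to 1.21, 1.15 to 1.31 and 0.99 to 1.20, all past the adjusted p. MiR-378-5p was less stable. Against PBS/PBS it was 0.043 (percentile over all miRNAs), -0.52 (no scaling), -0.12 with quantile normalization, -0.17 with control spots, 0.47 with the total gene signal and 0.47 with the brightness covariate, and 0.58 with only the compared groups or the Mann-Whitney test, none past the threshold, and 0.51 to 0.64 with an array left out. Against PBS/OVA it missed the threshold at 0.49 (percentile over all miRNAs), 0.21 (no scaling), 0.40 (quantile), 0.072 (control spots) and 0.52 (normexp), and against OVA/OVA DEX at 0.43, 0.36, 0.34, -0.057 and 0.34. The change of the difference between the arms missed it against PBS/PBS with quantile normalization (1.02), the total gene signal (0.65) and normexp (0.15), and with an array left out was 0.51 to 0.57. Against PBS/OVA it missed it with these settings at 0.72, 0.60 and 0.43, and against OVA/OVA DEX at 0.72 with quantile normalization and 0.052 with the total gene signal.

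Differences between the other groups passed under no setting, and some turned. PBS/OVA minus PBS/PBS turned to 0.067 (normexp) and 0.0078 (slide block) for miR-378-3p, to 0.35 (normexp) for miR-378-5p and to -0.28 (normexp) for the difference between the arms. OVA/OVA DEX minus PBS/PBS turned for miR-378-3p to -0.30 (percentile over all miRNAs), -0.79 (no scaling), -0.17 (quantile), -0.10 (median scaling), -0.022 (control spots) and -0.14 (brightness), with -0.059 to 0.13 when an array was left out. It turned to 0.53 (normexp) and 0.0071 (slide block) for miR-378-5p, and to -0.33 (normexp) for the difference between the arms. OVA/OVA DEX minus PBS/OVA turned without scaling to -0.11 for miR-378-3p and -0.15 for miR-378-5p, for which median scaling gave -0.031 and the total gene signal -0.44. For the difference between the arms it was -0.0066 (quantile) and -0.046 (normexp), and -0.030 to 0.11 with an array left out. The causes were not tested.

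The labels do not say that the replicate numbers pair arrays of different groups. Correlations of deviations from the group means ranged from -0.78 to 0.41 (median -0.06) for same-numbered arrays. For differently numbered arrays they ranged from -0.71 to 0.82 (median 0.0020). Deviations within a group depend on each other, so these values do not show a pairing and cannot exclude it. With the replicate block, miR-378-3p differed by 1.18, 1.26 and 1.15 and miR-378-5p by 0.69, 0.79 and 0.72, all past the adjusted p, whereas the change of the difference between the arms, 0.49, 0.47 and 0.43, passed only against OVA/OVA DEX. The numbers of miRNAs called over all tested in these 3 comparisons were 26 (16 higher and 10 lower), 14 (9 and 5) and 34 (25 and 9). They ranged from 8 to 156, 2 to 37 and 7 to 86 over the limma alternatives with the same 2-fold requirement. Without that requirement they were 68, 84 and 142 by limma. By the Mann-Whitney test they were 0, 10 and 32 with the requirement, and 0, 53 and 114 by the adjusted p alone. Higher and lower calls were 3 and 153, 0 and 2, and 13 and 10 without scaling, 7 and 68, 1 and 36, and 10 and 76 with control spots, 7 and 30, 2 and 7, and 18 and 19 with the percentile over all miRNAs, and 5 and 12, 5 and 7, and 17 and 12 with quantile normalization. Processed values for miR-378-5p were not used, since the row did not match on all arrays.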
